A study of Mus musculus with 10 samples.

Results

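Pou5f1, Sox2, Sall4, Utf1 and Zscan10 are transcription regulators that pluripotent cells use both before and after implantation. These 5 genes were taken by name from tables of 22867 gene symbols, and each had 1 entry in every table. The tables hold RNA sequencing levels of 10 libraries of mouse embryonic stem cells (ESCs) and of epiblast-like cells (EpiLCs), which are ESCs moved toward the post-implantation epiblast. The levels are FPKM, fragment counts scaled to transcript length and to the mapped total of the library, so they can be compared between genes.

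All lines were of the 129SV strain. The ESC libraries were R1 (replicates 1 and 2), E14, an Otx2-/- line, and Otx2-/- cells carrying a tetON Otx2 transgene, which doxycycline (dox) switches on, without dox and with dox. All ESCs grew in serum-free N2B27 medium with LIF and with inhibitors of MEK (PD0325901, 0.8 μM) and GSK3β (CHIR99021, 3.3 μM). The EpiLC libraries were R1 without activin A, R1 with activin A at 20 ng/ml, E14 and Otx2-/-, all after 48 h with bFGF and knockout serum replacement. For E14 and Otx2-/- EpiLC the labels do not say whether activin A was present. The dose and duration of dox, the deleted part of Otx2 and the number of clones behind the Otx2-/- and tetON cells are not stated in the labels. Every group but R1 ESC is 1 library, and the 3 ESC and 3 EpiLC libraries of R1 and E14 are used as replicates of each state.

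Pou5f1 encodes Oct4, a POU domain protein, and Sox2 encodes an HMG box protein. Oct4 and Sox2 bind side by side on composite DNA elements and maintain their own and each other's genes. Sall4 is a zinc finger protein that works with both and recruits the NuRD complex, a remodeller with histone deacetylases. Utf1 is a chromatin-bound protein and a classic Oct4 and Sox2 target, and Zscan10 (also called Zfp206) is a SCAN domain zinc finger protein of ESCs. The network is known for its sensitivity to dose, since raised or lowered Oct4 takes ESCs out of pluripotency.

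The 250 bases before the start are printed for 3 genes. Pou5f1 and Sox2 were both lower in EpiLC libraries and with dox, while Utf1 was higher in EpiLC libraries. A link between these bases and the levels was not tested. The sequences are from RefSeq on GRCm38.p6, plus strand, 5′ to 3′. They are Pou5f1 at chr17:35505782-35506031, Sox2 at chr3:34649745-34649994 and Utf1 at chr7:139943606-139943855. Capitals mark matches on either strand to the letters ATGCAAA (octamer, bound by POU proteins), ACAAAG or ACAATG (SOX proteins), GGGCGG (GC box), AGGTCA (nuclear receptors) and TAATCC (OTX proteins).
Pou5f1: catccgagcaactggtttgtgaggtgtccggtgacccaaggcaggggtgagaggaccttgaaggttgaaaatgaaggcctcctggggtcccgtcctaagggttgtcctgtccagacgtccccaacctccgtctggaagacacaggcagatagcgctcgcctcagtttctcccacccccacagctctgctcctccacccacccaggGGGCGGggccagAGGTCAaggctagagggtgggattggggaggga
Sox2: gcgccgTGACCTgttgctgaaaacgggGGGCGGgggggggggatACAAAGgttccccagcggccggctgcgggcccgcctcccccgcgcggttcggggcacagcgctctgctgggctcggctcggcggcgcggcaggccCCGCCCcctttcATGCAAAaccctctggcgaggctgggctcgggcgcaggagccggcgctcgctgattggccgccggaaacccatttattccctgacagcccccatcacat
Utf1: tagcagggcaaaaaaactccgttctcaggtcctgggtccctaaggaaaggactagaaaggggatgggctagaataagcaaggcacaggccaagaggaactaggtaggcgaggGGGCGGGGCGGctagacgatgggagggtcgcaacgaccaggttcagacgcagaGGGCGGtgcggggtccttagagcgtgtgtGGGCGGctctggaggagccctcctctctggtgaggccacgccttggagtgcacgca

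The Pou5f1 window held 1 GC box and, after it, 1 match to the nuclear receptor letters. The Sox2 window held 1 octamer match, 1 ACAAAG match, 2 GC boxes and 1 match to the nuclear receptor letters. The Utf1 window held 4 GC boxes, of which 2 overlap by 1 base, and none of the other letters. The Zscan10 window, at chr17:23600576-23600825 on the same build, held none of the 6, and Sall4 has no entry in the table used. Of 32851 such windows, 4.12% held the octamer letters, 16.5% ACAAAG, 10.7% ACAATG, 32.7% a GC box, 14% AGGTCA and 6.25% the OTX letters. GC content was 62.0% for Pou5f1, 72.0% for Sox2, 61.6% for Utf1 and 48.8% for Zscan10, against a median of 52.4%. As background, the enhancers of Pou5f1, Sox2 and Utf1 at which Oct4 and Sox2 are known to act lie outside these windows, and a match of letters is not evidence of binding.

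Otx2 followed the labels of the dox libraries, with 45.8 FPKM without dox and 1059.3 FPKM with dox. In Otx2-/- libraries it had 7.85 FPKM in ESC and 15.8 in EpiLC, against between 3.96 and 9.09 in R1 and E14 ESC and between 39.9 and 151 in R1 and E14 EpiLC. Reads from any exons that remain would count toward these values, so the Otx2-/- ESC level is no check of the deletion. Of 7 markers of naive ESCs, 7 fell in R1 and E14 EpiLC, and of 5 EpiLC markers, 5 rose. Approximate depth lay between 6600000 and 20600000 fragments, and the member value resting on the fewest was Zscan10 with dox, on about 800 fragments. Markers of other cell types were low: the summed level of 7 neural progenitor markers lay between 3.55 and 15.7 FPKM, of 7 primitive endoderm markers between 1.82 and 7.11, and of 6 fibroblast and feeder markers between 1.01 and 4.67. Trophoblast markers, 6 in number, summed to between 4.66 and 20.0 FPKM, with Tfap2c the highest of them in each library. Primitive streak markers, again 6, summed to between 4.92 and 13.1 FPKM, and the 5 germ cell markers to between 19.9 and 48.8. Among all these markers Dab2 (1.48), Krt7 (1.83) and Ddx4 (1.38) rose in R1 and E14 EpiLC on the log2 scale and none fell; their part in the member values was not tested.

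All 5 genes were expressed in all 10 libraries, at 17.6 FPKM or more. Pou5f1 was the highest of them in each library, ranking between 103 and 192 among all symbols. Zscan10 was the lowest in all 6 ESC libraries, and Sall4 the lowest in all 4 EpiLC libraries. Moving from ESC to EpiLC, Pou5f1 and Sall4 fell, Utf1 rose, and the differences in Sox2 and Zscan10 did not pass the test. The test was limma on log2(FPKM + 1) with the line as a term, and p-values were adjusted over the 12244 genes whose mean was 1 FPKM or higher, with a threshold of 0.05. All 5 members passed that filter. Thus 3 of 5 members passed, where 20.3% of all genes did, 9.73% higher and 10.6% lower in EpiLC. At an unadjusted p under 0.05, 4 members passed, where 36.8% of all genes did. The median of the members was -0.87 on the log2 scale, against -0.09 for all genes.

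**Figure D1:**
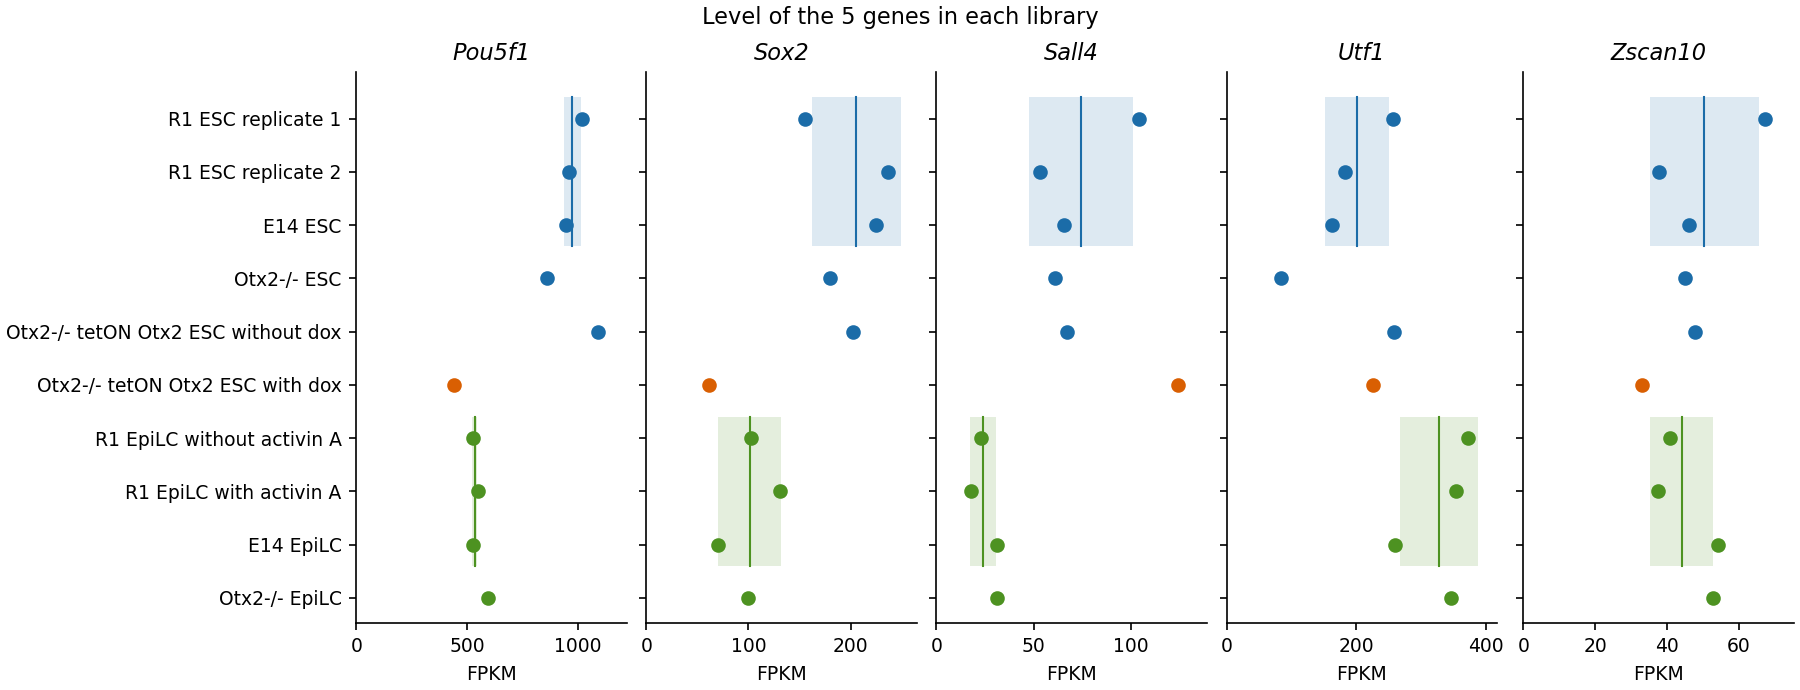
FPKM of each gene (x axis, 1 scale per gene, from 0) in each of the 10 libraries (rows), with ESC in blue, ESC with dox in orange and EpiLC in green. Each point is 1 library, and the line and band give the mean and SD of the 3 R1 and E14 libraries of a state; Pou5f1 lies between 525 and 548 in those EpiLC libraries and between 947 and 1018 in those ESC libraries.

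Pou5f1 lies on chromosome 17 at 35642976 to 35647722 on mm9, the build of the tables. It had 1018 and 957 FPKM in R1 ESC replicates 1 and 2 and 947 in E14 ESC. In EpiLC R1 had 525 FPKM lacking activin A and 548 given it, and E14 had 528. The ESC and EpiLC values did not overlap, which held in the lower direction for 25.5% of all genes. The mean went from 974 ± 38.4 to 534 ± 12.5 FPKM (SD, n = 3 each), 1.82-fold lower. Its coefficients of variation within the state, 3.94% and 2.34%, were the smallest of the 5 members. The log2 change was -0.87 (SE 0.14, 95% interval -1.22 to -0.52, limma adjusted p = 0.0147). The size of the change lay between -0.89 and -0.84 when any 1 library was left out. The call ended without E14 ESC (limma adjusted p = 0.0747), E14 EpiLC (0.0787), R1 EpiLC with activin A (0.101) or R1 EpiLC lacking it (0.121).

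Sox2 is listed on chromosome 3 at 34459302 to 34576915, a span that it shares in the tables with the noncoding gene Sox2ot, within which it lies. Without strand, reads of this pair cannot be told apart where they overlap, and the Sox2ot entry had between 0.893 and 2.05 FPKM. Sox2 had 156 and 236 FPKM in R1 ESC replicates 1 and 2 and 225 in E14 ESC. In EpiLC R1 had 103 FPKM lacking activin A and 131 given it, and E14 had 69.8. The states did not overlap, as for 25.5% of all genes in the lower direction. The lowest ESC library, R1 replicate 1, was nearest to the highest EpiLC library, R1 with activin A. The mean was 206 ± 43.8 FPKM in ESC and 101 ± 30.6 in EpiLC (SD, n = 3 each), and the log2 difference of -1.04 (SE 0.29, 95% interval -1.76 to -0.33) did not pass (limma adjusted p = 0.0575). It passed without R1 ESC replicate 1 (-1.30, limma adjusted p = 0.0135) and in a fit with no line term (-1.04, limma adjusted p = 0.0385). Sox2 did not pass in any other alternative, such as quantile normalization (-0.82, limma adjusted p = 0.165) or no filter on low values (0.0697). Neural progenitors also express Sox2. Their 7 markers summed to between 5.61 and 9.02 FPKM in R1 and E14 ESC and between 3.55 and 9.62 in EpiLC, with 3 of them under 1 FPKM in all 10 libraries, and their part in the Sox2 level was not tested.

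Sall4, on chromosome 2 at 168573831 to 168592701, had the largest fitted difference of the 5, an order that holds with R1 ESC replicate 1 in the fit: without it Sox2 was at -1.30 and Sall4 at -1.23. Within E14, too, Sox2 (-1.68) differed by more than Sall4 (-1.05). It had 104 FPKM in R1 ESC replicate 1, 53.2 in replicate 2 and 65.5 in E14 ESC. In EpiLC R1 had 22.9 FPKM lacking activin A and 17.6 given it, and E14 had 31.1. Each EpiLC value was below each ESC value, as for 25.5% of all genes, and R1 ESC replicate 1 was well above the other ESC libraries. The mean went from 74.3 ± 26.7 to 23.9 ± 6.81 FPKM (SD, n = 3 each), a log2 change of -1.58 (SE 0.32, limma adjusted p = 0.0262). Its size lay between -1.84 and -1.23 with 1 library left out. The call ended without E14 ESC (limma adjusted p = 0.0695), E14 EpiLC (0.0732), R1 EpiLC lacking activin A (0.108) or R1 EpiLC with it (0.108).

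Utf1, on chromosome 7 at 147129754 to 147131011, went the other way. It had 256 and 183 FPKM in R1 ESC replicates 1 and 2 and 163 in E14 ESC. In EpiLC R1 had 372 FPKM lacking activin A and 353 given it, and E14 had 259.7. The states did not overlap, as for 19.7% of all genes in the higher direction, although E14 EpiLC was only just above R1 ESC replicate 1. The mean went from 201 ± 49.1 to 328 ± 60.3 FPKM (SD, n = 3 each), a log2 change of 0.72 (SE 0.18, 95% interval 0.28 to 1.16, limma adjusted p = 0.0429). This call lies close to the threshold: it ended with no filter on low values (limma adjusted p = 0.0522), with a minimum mean of 5 FPKM (0.0517) and with no line term (0.0650). It also ended without R1 ESC replicate 2 (0.0765), E14 ESC (0.138), E14 EpiLC (0.141), R1 EpiLC with activin A (0.169) or R1 EpiLC lacking it (0.206).

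Zscan10, on chromosome 17 at 23737822 to 23747986, stayed within one range in both states. It had 67.2 and 37.6 FPKM in R1 ESC replicates 1 and 2 and 46.1 in E14 ESC, and 40.7, 37.5 and 54.0 FPKM in R1 EpiLC without activin A, R1 EpiLC with it and E14 EpiLC. The groups overlapped, and the spread between the R1 ESC replicates was wider than that between any of the EpiLC libraries. The log2 difference of -0.16 (SE 0.26, limma adjusted p = 0.678) had a 95% interval of -0.82 to 0.50. Its sign turned without R1 ESC replicate 1 (0.13) and with quantile normalization (0.010).

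**Figure D2:**
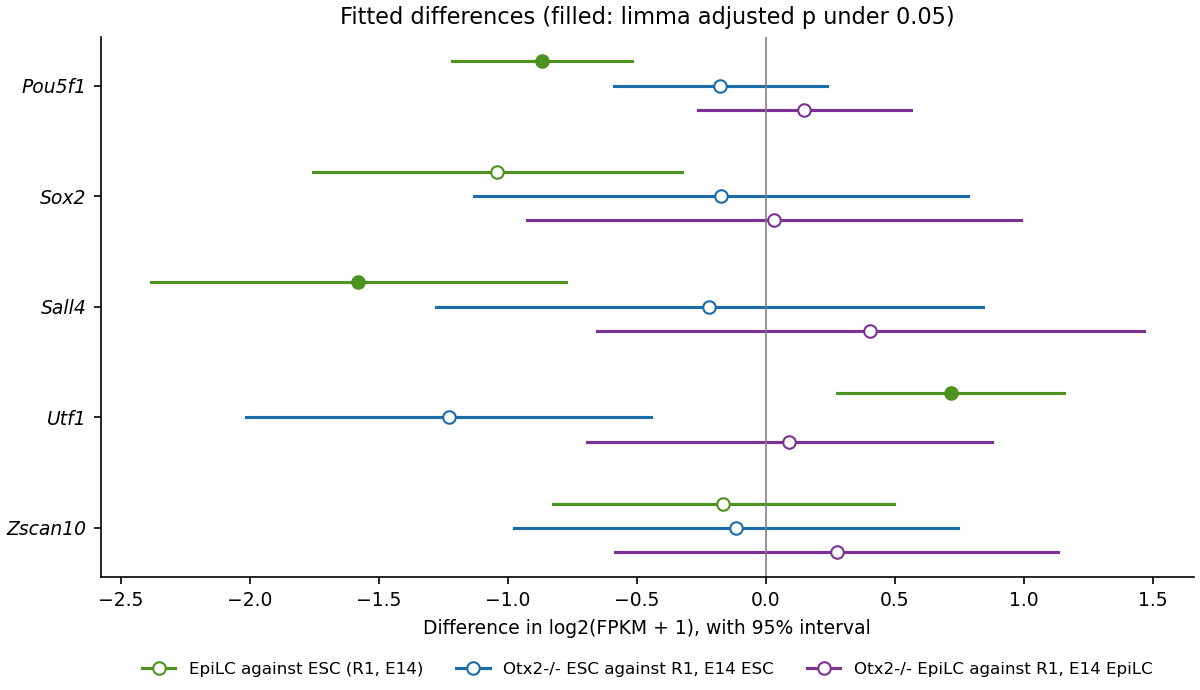
Fitted difference in log2(FPKM + 1) with its 95% interval (x axis) for the 5 genes (rows) in 3 comparisons, with filled points for a limma adjusted p under 0.05. Filled points are Pou5f1 and Sall4 on the negative side and Utf1 on the positive side, all in EpiLC against ESC; no comparison of Otx2-/- with R1 and E14 has one.

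Within the lines, the differences between states were close to each other in Pou5f1 and Utf1 and farther apart in Sox2 and Sall4. Pou5f1 differed by -0.91 in R1 EpiLC without activin A, -0.85 with it and -0.84 in E14 (log2, against ESC of the same line). Utf1 differed by 0.78, 0.70 and 0.67 in the same order. For Sox2 the values were -0.90, -0.55 and -1.68, so that E14 had the largest difference. For Sall4 they were -1.66, -2.02 and -1.05, so that E14 had the smallest. Zscan10 lay at -0.30 and -0.42 in R1 and at 0.22 in E14. The E14 response minus that of R1 was -0.96 for Sox2 (SE 0.50) and 0.79 for Sall4 (SE 0.67), and none of the 5 members passed in that test (limma adjusted p between 0.914 and 0.986), where 0.327% of all genes did. None had an unadjusted p under 0.05, where 3.1% of all genes had. These values rest on single libraries: Sall4 was 0.31 without R1 ESC replicate 1 and 1.27 without replicate 2, and Zscan10 (0.58 with all) was 0.17 and 0.99. Utf1 (-0.07 with all) was -0.32 without replicate 1 and 0.17 without replicate 2, so its closeness between the lines depends on both replicates. Without replicate 2, the limma adjusted p was 0.0879 for Sall4, 0.0878 for Sox2 and 0.0686 for Zscan10.

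In R1 EpiLC, activin A, the ligand of the Nodal and Activin pathway that supports primed cells, changed none of the members by 2-fold. This pair of libraries has no replicate check, and a gene was counted at a log2 ratio of (FPKM + 1) of at least 1 in size with 5 FPKM or more in 1 of the pair. Sox2 was higher with activin A by 0.35 on that scale, and Sall4 was lower by 0.36 (log2 ratio -0.36). Pou5f1 (0.06), Utf1 (-0.08) and Zscan10 (-0.12) lay closer to 0. Of all genes that reached 5 FPKM, 2.14% were counted, and the shares past 2-fold in pairs given further on are counted the same way.

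**Figure D3:**
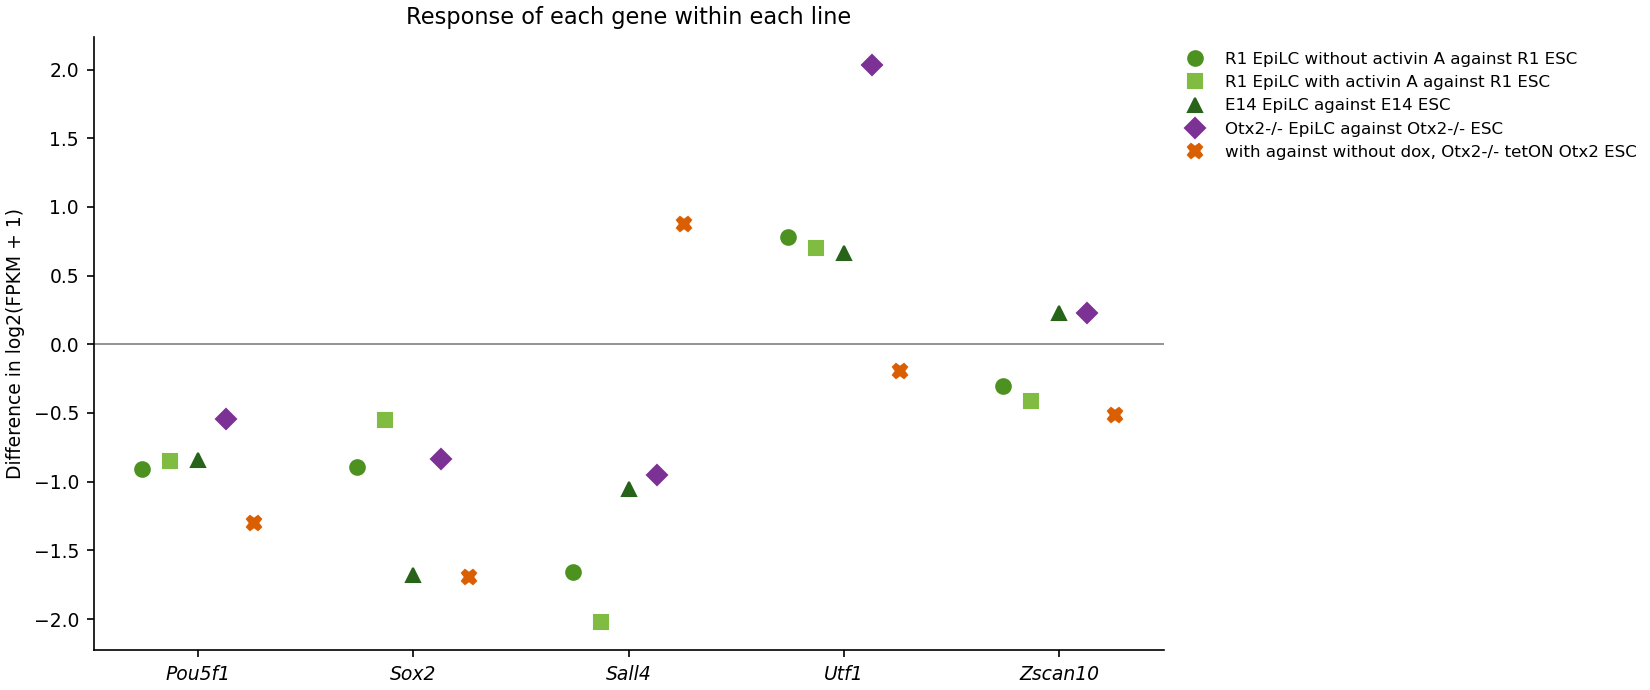
Difference in log2(FPKM + 1) (y axis) of each gene (x axis) between EpiLC and ESC within each line, and between ESCs with and without dox; each point compares 1 library with the 1 or 2 reference libraries of its line. Sall4 is at 0.88 with dox and between -2.02 and -0.95 in EpiLC, and Utf1 is at 2.04 in the Otx2-/- line and between 0.67 and 0.78 in R1 and E14.

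In ESCs of the Otx2-/- line, 4 members lay near their level in R1 and E14 ESC and Utf1 lay below it. With 1 Otx2-/- library per state, genotype cannot be told apart from line, clone or culture. Utf1 had 83.5 FPKM, against 163, 183 and 256 in E14 ESC and R1 ESC replicates 2 and 1. It was thus 2.40-fold under their mean, and it was the lowest Utf1 value of the 10 libraries. The log2 difference was -1.23 (SE 0.32, 95% interval -2.01 to -0.44); its unadjusted p of 0.00847 in limma became an adjusted p = 1. No member passed, where 0.139% of all genes did and 1.08% had an unadjusted p under 0.05. The Otx2-/- tetON Otx2 cells without dox, with Otx2 at 45.8 FPKM, had 259 FPKM of Utf1, just above R1 ESC replicate 1 and just below E14 EpiLC. That log2 ratio of 1.62 to the Otx2-/- ESC library was past 2-fold, as for 2.7% of all genes, while the other 4 members differed by between 0.08 and 0.34. With dox, at 1059.3 FPKM of Otx2, Utf1 had 226 FPKM, and a part of Otx2 in the Utf1 level was not tested.

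Pou5f1 had 861 FPKM in Otx2-/- ESC, below all of R1 and E14 ESC, and 1088 in the tetON cells without dox, above all of them. Its log2 difference in Otx2-/- ESC was -0.18 (95% interval -0.59 to 0.24). Sox2 at 179 FPKM, Sall4 at 61.2 and Zscan10 at 45.0 lay inside the R1 and E14 ESC range. So 2 of 5 members lay outside it, and 32.9% of all genes did.

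In EpiLC of the Otx2-/- line the 5 genes were close to R1 and E14 EpiLC. Pou5f1 had 592 FPKM, above the highest of the other EpiLC libraries, and Sall4 had 31.1, level with E14 EpiLC and nominally above it. Sox2 at 99.99 FPKM, Utf1 at 346 and Zscan10 at 52.9 lay inside the range. So 2 of 5 members lay outside it, where 53.3% of all genes did, and none passed the test, where 0.163% of genes did. At an unadjusted p under 0.05 none passed either, where 3.59% of genes did. Without R1 EpiLC with activin A the difference in Sall4 was 0.21 and without E14 EpiLC 0.61. With all libraries the log2 differences were 0.15 for Pou5f1 (95% interval -0.26 to 0.56), 0.03 for Sox2 (-0.93 to 0.99), 0.41 for Sall4 (-0.65 to 1.47), 0.09 for Utf1 (-0.69 to 0.88) and 0.27 for Zscan10 (-0.58 to 1.13). The intervals of Zscan10 and Sall4 reach past 2-fold higher, and those of Sox2 and Utf1 come close to it.

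Between Otx2-/- ESC and Otx2-/- EpiLC, 1 library each, Utf1 was 4.14-fold higher in EpiLC (log2 ratio 2.04), past 2-fold as were 6.99% of all genes in that direction and 15.5% in either. Pou5f1 (-0.54), Sox2 (-0.84) and Sall4 (-0.95) were lower, and Zscan10 lay at 0.23. The EpiLC response of Otx2-/- minus that of R1 and E14 was 1.32 for Utf1 (SE 0.46), with an unadjusted p of 0.0269 in limma and an adjusted p = 0.997. It rests on the same low Otx2-/- ESC value. None of the 5 members passed in that test, where 0.277% of genes did. At an unadjusted p under 0.05 it was 1 member, Utf1, and 1.58% of genes.

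In ESCs with induced Otx2, still under MEK and GSK3 inhibition, Pou5f1 and Sox2 were lower and Sall4 was higher than without dox. Pou5f1 had 1088 FPKM without and 440.1 with dox, 2.47-fold lower and the lowest Pou5f1 value of the 10 libraries. Sox2 had 202 without and 61.6 with dox, 3.28-fold lower and also its lowest value. Sall4 had 67.1 without and 124 with dox, 1.85-fold higher and its highest value. Of 5 members, 2 were thus past 2-fold, both lower (log2 ratios -1.30 and -1.70), where 12.1% of all genes were past 2-fold, 5.71% lower. Utf1 (259 and 226 FPKM, -0.20) and Zscan10 (47.7 and 33.0 FPKM, -0.52) were not. The median log2 ratio of the members was -0.52, against -0.06 for all genes. Neither library has a replicate. Between the R1 ESC replicates (replicate 2 against replicate 1) the log2 ratio of Sall4 was -0.96, larger in size than its 0.88 with dox. Those of Pou5f1 (-0.09) and Sox2 (0.60) were smaller in size than with dox. In that replicate pair 11.5% of all genes were past 2-fold.

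Set beside the EpiLC values, the dox library was below the lowest EpiLC library in Pou5f1, Sox2, Utf1 and Zscan10 and above the highest one, Otx2-/- EpiLC at 31.1 FPKM, in Sall4. Markers of other cell types differed between the dox libraries in both directions. Neural progenitor markers, of cells that also express Sox2, summed to 15.7 FPKM with and 12.1 without dox, with 4 of 7 higher and 3 lower. Nes had 12.9 with and 5.12 without, and Sox1 had 0.475 and 3.27. Primitive endoderm markers, of cells that also express Sall4, summed to 7.11 with and 2.88 without dox, with 5 of 7 higher and 2 lower. Germ cell markers, of cells that also express Pou5f1 and Sall4, summed to 45.3 with and 27.4 without dox, with 3 of 5 higher and 2 lower, and Dazl had 26.8 and 8.86. Trophoblast markers, of cells that also express Sox2 and Utf1, summed to 16.9 with and 19.6 without, streak markers to 10.4 and 7.28, and fibroblast and feeder markers to 2.74 and 2.88. Their part in the values of the 5 genes was not tested. In bulk RNA, fewer cells with a gene and less RNA per cell cannot be told apart.

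The proportions of the 5 genes differed between libraries, and some of them separated the states, that of Utf1 to Pou5f1 among them. Pou5f1 was between 4.05 and 6.54 times Sox2 in ESC without dox, between 4.19 and 7.57 times in EpiLC and 7.14 times with dox, ranges that overlap. Utf1 was between 0.0970 and 0.252 times Pou5f1 in ESC without dox and between 0.491 and 0.709 times in EpiLC, which do not overlap. With dox that ratio was 0.513, inside the EpiLC range, although Utf1 itself was lower than without dox. For R1 and E14 the separation follows from Utf1 being higher and Pou5f1 lower in EpiLC without overlap. Utf1 over Sox2 also separated the states, at most 1.65 in ESC without dox and at least 2.70 in EpiLC. So did Pou5f1 over Zscan10, at least 15.2 in ESC without dox and at most 14.6 in EpiLC. Sox2 was between 1.49 and 4.45 times Sall4 in ESC without dox and between 2.24 and 7.45 times in EpiLC. With dox it was 0.496 times Sall4, the only library of the 10 in which Sall4 exceeded Sox2.

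**Figure D4:**
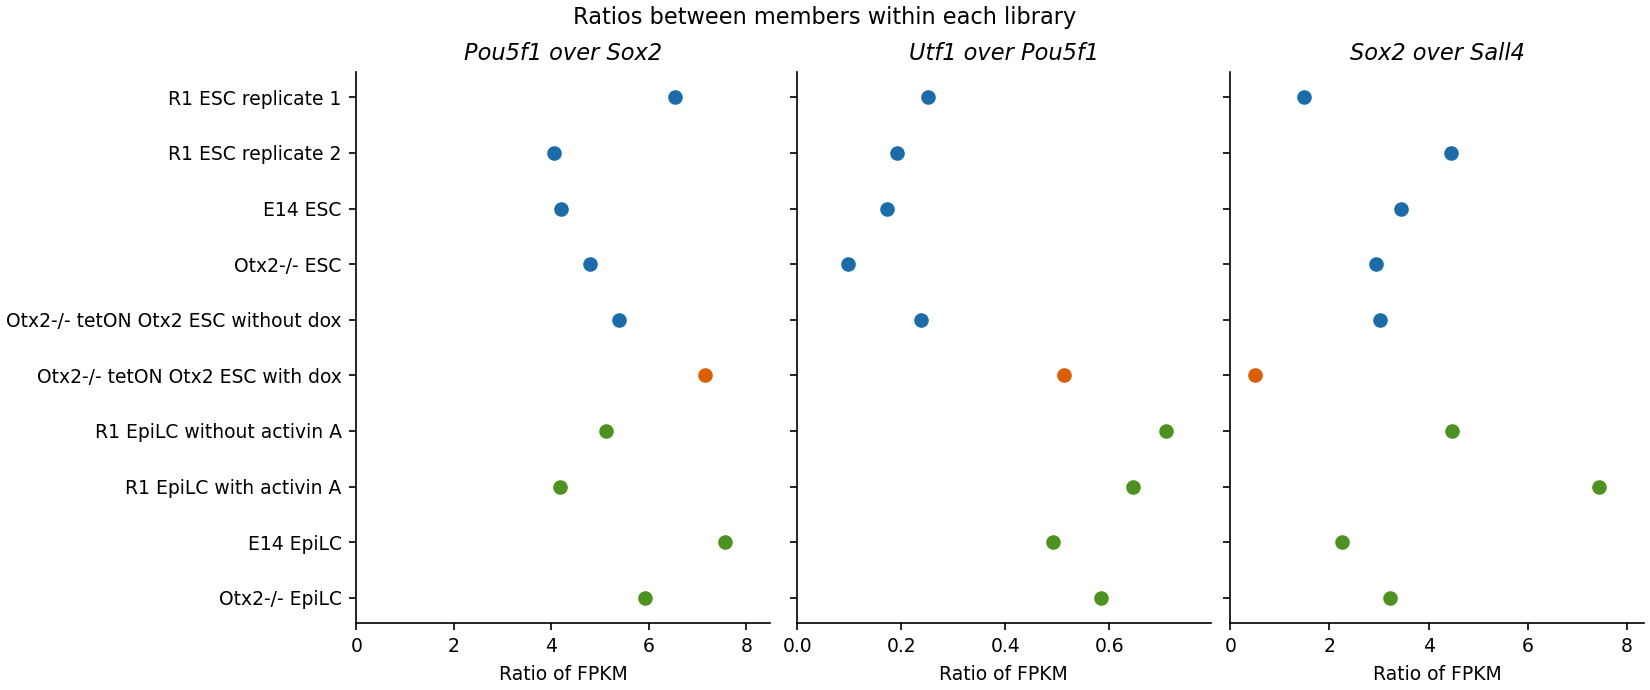
Ratio of FPKM between members (x axes, from 0) within each of the 10 libraries (rows), with ESC in blue, ESC with dox in orange and EpiLC in green; each point is 1 library. Utf1 over Pou5f1 is at most 0.252 in ESC without dox and at least 0.491 in the others, while Sox2 over Sall4 is lowest with dox, at 0.496.

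The R1 ESC replicates differed in the members in opposite directions. Replicate 1 was above replicate 2 in Sall4 (104 against 53.2 FPKM), Zscan10 (67.2 against 37.6) and Utf1 (256 against 183), and below it in Sox2 (156 against 236). Pou5f1 was nearly level, at 1018 and 957 FPKM. No member was past 2-fold as deposited, where 11.5% of all genes were; with quantile normalization Sox2 was (log2 ratio 1.01). The median of all genes was itself lower in replicate 2 by a log2 ratio of -0.22. Replicate 1 held the highest Zscan10 value of the 10 libraries and the lowest Sox2 value among ESC without dox.

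Relatives of the members moved in both directions. In the SALL family, Sall2 rose (2.65, limma adjusted p = 0.00141) from between 1.67 and 2.25 FPKM in R1 and E14 ESC to between 17.2 and 18.4 in EpiLC. Sall3 fell (-3.68, limma adjusted p = 0.00371) from between 8.19 and 19.8 FPKM to between 0.0553 and 0.410. Sall1, at between 41.2 and 46.0 FPKM in ESC and between 31.7 and 40.9 in EpiLC, differed by -0.34 and did not pass. Sall4 was thus the highest SALL gene in all 6 ESC libraries and second to Sall1 in all 4 EpiLC libraries. In R1 EpiLC with activin A, Sall4 at 17.6 FPKM and Sall2 at 17.5 were level. With dox, Sall1 went from 38.6 to 14.9 FPKM and Sall3 from 11.8 to 2.72, both lower by over 2-fold, while Sall4 was higher.

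**Figure D5:**
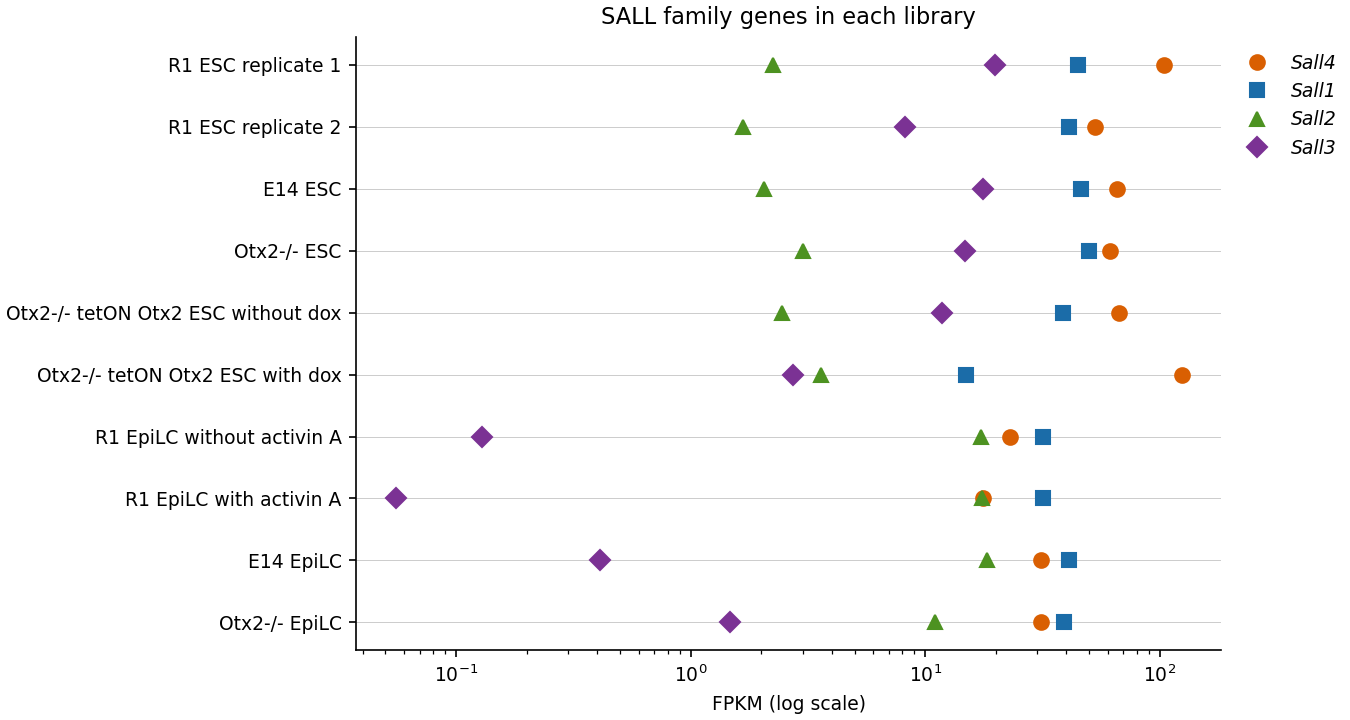
FPKM on a log scale (x axis) of the 4 SALL family genes in each of the 10 libraries (rows), 1 point per gene and library. Sall4 is the rightmost point in all ESC libraries, at 124 with dox, and Sall1 is the rightmost in all EpiLC libraries.

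Of 12 other POU genes 7 were tested, and 2 rose and 3 fell, where 9.73% of all genes rose and 10.6% fell. Pou3f1, a POU factor of the epiblast and neural cells, rose (4.73) to between 42.0 and 72.2 FPKM, and Pou2f2 rose (1.19). Pou4f2 (-1.35) and Pou4f1 (-0.90) fell from low levels, and Pou2f3 (-1.33) fell from between 9.59 and 14.8 FPKM in R1 and E14 ESC. Of 17 other SOX genes 8 were tested, and Sox3 (1.79) and Sox4 (1.17) rose while Sox21 (-1.71) fell. Sox3, which like Sox2 belongs to the SoxB1 group, had between 8.42 and 14.9 FPKM in R1 and E14 EpiLC, below Sox2 in each. Sox15, another SOX gene of ESCs, at between 10.0 and 18.7 FPKM in ESC and between 6.37 and 29.0 in EpiLC, did not pass. Of 12 tested genes with SCAN domains 1 rose, Zkscan17 (0.58), and 0 fell.

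Genes that Oct4 and Sox2 are known to activate fell or did not pass in EpiLC. Of 10, 0 rose and 4 fell, where 9.73% of all genes rose and 10.6% fell. The median of the 10 was -0.29, against -0.09 for all genes. Those that fell were Spp1, which encodes osteopontin (-3.93), Zfp42 (-3.69), Fbxo15 (-2.12) and Nanog (-2.01). Nanog was read from an entry shared with the pseudogene Nanogpd. Zfp42 and Nanog are also on the list of naive markers. Fgf4, the growth factor gene with a composite Oct4 and Sox2 element, had between 101 and 144 FPKM in R1 and E14 ESC and between 73.2 and 114 in EpiLC and did not pass. Tdgf1 had 285 FPKM in R1 ESC replicate 1, between 695 and 796 in the other ESC libraries of the test and between 475 and 687 in EpiLC. Others lay on the higher side without passing: Lefty1 (1.74, limma adjusted p = 0.0579), Dppa4 (0.61, 0.0715) and Jarid2 (0.22, 0.273). Each had all R1 and E14 EpiLC values above all ESC values, as did 19.7% of all genes. With dox, 3 of the 10 were lower by 2-fold or more, where 5.71% of all genes were. Zfp42 (-1.65) and Nanog (-1.59) were among them, and Fbxo15 was higher (1.00).

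Among 11 other general pluripotency genes 0 rose and 2 fell, Mybl2 (-1.65) and Gdf3 (-1.34), with a median of -0.57. With dox L1td1 (-1.88) and Lin28a, which encodes an RNA-binding protein that blocks let-7 maturation (-1.12), were past 2-fold lower. Few subunits of the complexes that these factors recruit passed, where 9.73% of all genes rose and 10.6% fell. Of 13 NuRD genes 0 rose and 1 fell, Mta2 (-0.89), and of 10 esBAF genes, the ESC form of the SWI/SNF remodeller, 0 passed by limma. With dox 0 of 12 expressed NuRD genes and 1 of 10 esBAF genes, Dpf2 (1.07), were past 2-fold. Of 11 cofactors and binding partners of Oct4 and Sox2, 5 fell and 1 rose. Those that fell were Klf4 (-5.50), Esrrb (-3.55), Stat3 (-1.61), the repressor gene Tcf7l1 (-0.88) and Wdr5, a subunit of histone methyltransferase complexes that binds Oct4 (-0.76); Klf4 and Esrrb are also on the list of naive markers. The centrin gene Cetn2, a subunit of the XPC complex that acts as a coactivator, rose (0.78). Between Otx2-/- and the R1 and E14 libraries no gene of these lists passed, other than the EpiLC marker Fgf5 in EpiLC (limma log2 difference -2.39).

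Near the members on the chromosome, some genes moved the same way and others did not. Tcf19, 1957 bp after Pou5f1, fell (-0.57, limma adjusted p = 0.0362) from between 7.98 and 8.55 FPKM in R1 and E14 ESC to between 4.83 and 5.68 in EpiLC. With dox it went from 8.98 to 7.10 FPKM. Kndc1, 2315 bp before Utf1, rose (1.52) from at most 1.56 FPKM to at least 2.95. Zfp64, 158159 bp after Sall4, fell (-0.81), while Atp9a on the other side did not pass and was higher with dox, at 29.4 FPKM against 15.2. Mmp25, a membrane metalloprotease gene 18438 bp after Zscan10, rose (2.64) and had 6.75 FPKM with and 0.496 without dox, while Zscan10 had 33.0 with and 47.7 without. The nearest separate entries to Sox2, Dnajc19 and Gm3143, did not pass.

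The genes closest in pattern to each member over the 10 libraries were sought among 8543 genes (mean 5 FPKM or higher) by Pearson's r of log2(FPKM + 1). The libraries share lines and fall into 2 states, so r is only a description. Closest to Pou5f1 was Hsd17b14 (r = 0.992), a steroid dehydrogenase gene with between 74.4 and 86.1 FPKM in R1 and E14 ESC, between 29.9 and 34.5 in EpiLC and 24.5 with dox. Rabif and Chmp1b followed (r = 0.977 and 0.976). Closest to Sox2 were Gpa33, Slc25a13 and Vps54 (r = 0.974, 0.974 and 0.967), all like Sox2 lower in R1 ESC replicate 1 than in replicate 2. Close to Sall4 were Ubac2 and Agpat1 (r = 0.992 and 0.986). Agpat1, which encodes an acyltransferase of phospholipid synthesis, had 43.9 FPKM in R1 ESC replicate 1 and 45.5 with dox, its 2 highest values.

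Closest to Zscan10 were Pa2g4, Gnl3 and Bzw1 (r = 0.990, 0.984 and 0.983), each highest in R1 ESC replicate 1. Pa2g4 had 354 FPKM there, 189 in replicate 2 and 167 with dox. Utf1 had the least close neighbours, Capg, Fam103a1 and Cyth3 (r = 0.916, 0.908 and 0.901). Capg, an actin-capping protein gene, had 4.30 FPKM in Otx2-/- ESC, its lowest value as for Utf1, and 12.3 in the tetON cells without dox. Between members, Pou5f1 and Sox2 were closest to each other (r = 0.901), and Utf1 had r of -0.46, -0.45 and -0.49 with Pou5f1, Sox2 and Sall4.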

How the data were processed

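Polyadenylated RNA of 10 libraries was sequenced, with no step that marks strand in the labels' protocols. The deposited tables hold 1 FPKM value per gene entry, which the authors obtained with TopHat and Cufflinks on mm9, per the submitters' processing notes. Their versions, annotation and settings are not known here. Each table has 23112 entries; 17 exact repeats were dropped and 228 entries were summed into another of the same symbol. limma 3.58.1 under R 4.3.3 (eBayes with trend, two-sided) was run on log2(FPKM + 1), a scale that understates changes of low genes. Genes needed a mean of 1 FPKM, and p-values were adjusted over all of them by Benjamini-Hochberg. The script was checked on simulated data. R1 and E14 were compared over 6 libraries with the line as a term. Otx2-/- entered a fit of 8 libraries, where its single library per state borrows the spread of the R1 and E14 groups. The labels' protocols speak of independent ESC and EpiLC cultures without naming them, and p-values measure the spread between these libraries, activin A included. The mean level of a line is part of that spread only in the Otx2-/- fit, since the fits of R1 and E14 alone have the line as a term. The EpiLC against ESC fit has no interaction of line and state. A difference between the lines in their EpiLC response therefore stays in its spread. Depth was approximated from the lowest values of 1086 olfactory receptor symbols, and the fragments behind a member from its longest coding transcript in GENCODE M21; both cover counting error only.

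The members and the 17 gene lists were chosen with earlier results of these data known. Named were the members, list genes that passed, the nearest entries by coordinates and the 3 genes of closest pattern. Some genes that this rule names are not reported here. Some list genes that did not pass were chosen after their values were seen. Promoter windows matched 4 of 5 members by symbol, taking the start farthest upstream.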

Additional observations from a re-analysis of the deposited data

How the results depend on the processing

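Alternatives were pseudocounts of 0.1 and 5, other filters on low values, median-ratio and quantile scaling, eBayes without trend, other model terms and leaving out each R1 or E14 library. The cause of the changes was not tested. No paired analysis was possible because only the R1 ESC group carries replicate numbers, so that no libraries pair by number; the line, which ties ESC to EpiLC libraries, was a term of the EpiLC against ESC fit.

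In EpiLC against ESC, Utf1 kept 0.72 but did not pass with no filter, with a minimum mean of 5 FPKM or with no line term, and Sox2 (-1.04) passed with no line term. Zscan10 was 0.010 and Sox2 -0.82 with quantile scaling, and neither passed by limma. A minimum of 5 FPKM gave 1644 genes called against 2484. Leaving out 1 library gave between 398 (without R1 EpiLC lacking activin A) and 4118 genes (without R1 ESC replicate 1). The members then lay between -0.89 and -0.84 (Pou5f1), -1.30 and -0.72 (Sox2), -1.84 and -1.23 (Sall4), 0.57 and 0.85 (Utf1) and -0.36 and 0.13 (Zscan10).

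In Otx2-/- EpiLC 20 genes were called, 59 with no filter, and between 21 and 42 with 1 library left out. Sox2 was -0.066 and Utf1 -0.0044 with quantile scaling, and with 1 library left out they lay between -0.21 and 0.24 and between -0.069 and 0.19, negative without E14 EpiLC, and Sall4 lay between 0.21 and 0.61. In Otx2-/- ESC 17 genes were called, 34 with no filter, 5 with a minimum of 5 FPKM, 37 from ESC libraries alone, and between 20 and 26 with 1 left out. Sall4 there lay between -0.43 and 0.052 and Zscan10 between -0.30 and 0.11, positive without R1 ESC replicate 1.

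For the Otx2-/- response minus that of R1 and E14, 34 genes were called, 55 with no filter, 11 with a minimum of 5 FPKM, and Sox2 lay between -0.038 (without E14 EpiLC) and 0.41. For the E14 response minus that of R1, 40 genes were called, 17 with a pseudocount of 0.1, 13 with a minimum of 5 FPKM, and between 0 and 127 with 1 left out. Pou5f1 there was -0.0072 with median-ratio and -0.044 with quantile scaling and lay between -0.0065 and 0.083 with 1 left out, Utf1 between -0.32 and 0.17, Sox2 between -1.26 and -0.66, Sall4 between 0.31 and 1.27 and Zscan10 between 0.17 and 0.99. That fit could not be estimated without E14 ESC or E14 EpiLC. With quantile scaling, the log2 ratio of Pou5f1 was 0.26 for activin A, -1.13 for dox, 0.18 for the tetON cells without dox against Otx2-/- ESC, -0.73 in E14 and 0.078 between the R1 ESC replicates (-0.014 with median-ratio scaling), where Utf1 was -0.081. It also turned Utf1 with activin A from -0.08 to 0.031.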
